A study of Mus musculus with 6 samples.

Results

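Chromatin accessibility at 7 genes that encode cytokine receptor chains of the common gamma chain family was compared between regulatory T cells (Treg cells) labelled Bcl11b knockout (KO) and Treg cells with intact Bcl11b (WT). The genes were Il2rg, Il2ra, Il2rb, Il15ra, Il7r, Il4ra and Il21r. Their peaks were selected by position alone. A peak belonged to a gene when its midpoint lay in the gene body, or when it lay between genes and that gene was the nearest protein-coding gene within 100 kb. By this rule 24 of the 36182 KO peaks and 26 of the 38258 WT peaks belonged to the 7 genes, and each of the 7 received at least 1 peak in both lists. Of all 21887 protein-coding genes, 14443 received a peak in at least 1 list.

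The samples were CD4+YFP+ cells sorted from spleen and draining lymph nodes of C57BL/6 mice, 3 KO and 3 WT samples, with 100000 cells lysed per sample. KO cells carried Bcl11b f/f and WT cells Bcl11b w/w, and both groups carried Foxp3-IRES-YFP-Cre. Cre and YFP were therefore made from the Foxp3 gene in KO and WT cells alike, and deletion was limited to cells in which that gene is or was active. The assay was ATAC-seq, in which a transposase cuts and tags open DNA, and each group had 1 list of called peaks for its 3 samples together. The lists hold no read counts, so depth and the spread between replicates are unknown, and the differences below come without a replicate check and without a test. A peak is named KO-only or WT-only where no peak of the opposite list overlapped it by at least 1 bp. The absence of a call is not evidence of closed chromatin. A site open in fewer cells and a site less open in every cell cannot be told apart in these sorted populations.

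Receptors of this family share the gamma chain encoded by Il2rg, which pairs with a chain specific to each cytokine and signals through the kinases JAK1 and JAK3 to STAT proteins. The cytokines are IL-2, IL-4, IL-7, IL-9, IL-15 and IL-21. Treg cells depend on IL-2, carry the high-affinity IL-2 receptor with the alpha chain CD25 (Il2ra) and are known for low surface CD127, the IL-7 receptor alpha chain (Il7r).

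The start-site regions of the receptor genes are shown first, since KO and WT peaks met in the windows of 5 of the 6 receptor genes with a window. Of all genes with a peak and a window, 56.4% had a base inside both a KO peak and a WT peak. Each sequence runs 5′ to 3′ over 250 bases before and 50 bases after a RefSeq transcription start of assembly GRCm38.p6, whose positions match those of mm10. Capitals mark bases inside both a KO peak and a WT peak.
Il2ra (chr2:11642542-11642841, plus strand): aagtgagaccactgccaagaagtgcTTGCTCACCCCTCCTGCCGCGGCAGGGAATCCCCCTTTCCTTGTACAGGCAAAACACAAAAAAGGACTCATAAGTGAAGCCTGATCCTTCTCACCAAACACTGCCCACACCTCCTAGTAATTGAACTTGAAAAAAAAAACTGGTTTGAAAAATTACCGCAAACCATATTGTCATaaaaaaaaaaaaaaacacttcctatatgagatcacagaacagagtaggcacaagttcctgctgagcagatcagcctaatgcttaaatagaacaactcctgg
Il2rg (chrX:101268206-101268505, minus strand): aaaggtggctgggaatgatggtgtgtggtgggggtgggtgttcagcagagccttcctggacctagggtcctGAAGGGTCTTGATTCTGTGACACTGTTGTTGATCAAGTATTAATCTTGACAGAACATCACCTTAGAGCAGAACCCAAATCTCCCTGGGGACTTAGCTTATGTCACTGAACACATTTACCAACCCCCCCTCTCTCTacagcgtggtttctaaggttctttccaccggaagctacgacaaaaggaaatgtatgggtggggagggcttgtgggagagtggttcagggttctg
Il4ra (chr7:125552021-125552320, plus strand): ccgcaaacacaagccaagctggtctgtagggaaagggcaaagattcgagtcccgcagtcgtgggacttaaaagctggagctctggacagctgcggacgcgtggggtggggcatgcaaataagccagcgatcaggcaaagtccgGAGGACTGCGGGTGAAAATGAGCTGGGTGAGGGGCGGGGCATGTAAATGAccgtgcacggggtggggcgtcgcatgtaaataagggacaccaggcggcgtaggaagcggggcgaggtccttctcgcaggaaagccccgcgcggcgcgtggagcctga
Il21r (chr7:125603179-125603478, plus strand): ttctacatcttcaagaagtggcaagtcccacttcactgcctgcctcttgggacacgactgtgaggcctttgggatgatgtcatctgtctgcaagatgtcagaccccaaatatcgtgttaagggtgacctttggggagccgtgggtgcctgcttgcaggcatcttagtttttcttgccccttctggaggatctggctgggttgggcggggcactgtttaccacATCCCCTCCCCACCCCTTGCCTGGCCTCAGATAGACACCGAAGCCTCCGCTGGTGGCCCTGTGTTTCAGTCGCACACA
Il15ra (chr2:11705462-11705761, plus strand): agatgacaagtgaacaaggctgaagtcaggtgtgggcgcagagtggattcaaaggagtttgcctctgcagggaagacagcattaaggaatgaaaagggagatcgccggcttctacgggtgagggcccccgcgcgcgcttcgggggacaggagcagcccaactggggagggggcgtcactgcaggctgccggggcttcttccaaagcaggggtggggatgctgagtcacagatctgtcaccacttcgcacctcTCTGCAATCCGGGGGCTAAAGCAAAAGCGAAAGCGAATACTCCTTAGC
The capitals cover 174 bases at Il2ra, 135 at Il2rg, 78 at Il21r, 50 at Il4ra and 48 at Il15ra. At Il21r and Il15ra the window end cuts them off, and the KO and WT peaks there share 140 and 173 bp in full. They lie before the start in Il2ra, Il2rg and Il4ra, reach over it in Il21r and lie after it in Il15ra. The Il15ra window belongs to the second of 2 RefSeq starts in the sequence table, and no peak of either list reached the window of the other start. No base of the Il7r window lay in a peak of either list. No window was matched for Il2rb.

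The base composition of the windows differed between the receptor genes. The window of Il4ra was 62.0% G and C and held 25 CpG dinucleotides, and the Il15ra window shown was 58.7% G and C and held 15. The Il21r window was 56.0% G and C and held 7 CpG. The Il2ra window was 42.7% and the Il2rg window 50.3% G and C, and each held 3 CpG. The Il7r window was 45.7% G and C and held 1 CpG, and the first Il15ra window was 54.0% and held 6. The median over all promoter windows was 52.7% G and C. The Il2ra, Il2rg and Il7r windows lay below it, and the Il4ra, Il21r and both Il15ra windows above it.

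Matches to 12 short motifs were searched on both strands of the 7 member windows, with overlaps between motifs allowed, and set against all 32851 windows of the same length. GGAAG, the core of ETS family sites, was in 6 of the 7 windows and in 71.4% of all windows, and was absent from the Il21r window. TGTGGT, a RUNX core, was found at Il2rg, Il7r and Il21r and in 16.8% of all windows. GGGCGG, read by KLF and SP factors, was found at Il4ra, Il21r and the first Il15ra window and in 35.7% of all windows. GGAAAA, a core of NFAT sites, was found at Il7r and the first Il15ra window and in 23.4% of all windows. The STAT motif TTCNNNGAA was found at Il7r alone among the members and in 8.3% of all windows. TGANTCA, the AP-1 motif, was found at Il15ra, before the second start, and in 7.81% of all windows. TTCAAAG, a TCF and LEF motif, was also found at Il15ra and in 5.14% of all windows. GTAAACA, a forkhead motif, was found at Il21r and in 3.65% of all windows, and an NF-kB motif at Il4ra and in 1.63%. AGATAA of GATA factors (11.2% of all windows), an IRF motif (3.44%) and TGACCA, known from human BCL11A (13.6%), were in no member window. Among all these matches, the GGGCGG of Il4ra was the only match that lay wholly inside bases covered by both a KO peak and a WT peak.

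Most sites at the receptor genes were called in both lists. The 7 genes had 30 distinct sites, of which 20 were shared, 4 were KO-only and 6 were WT-only. KO-only peaks made up 16.7% of the KO peaks of these genes (exact Clopper-Pearson 95% interval 4.74 to 37.4%), against 25.4% of all KO peaks. WT-only peaks made up 23.1% of their WT peaks (8.97 to 43.6%), against 29.5% of all WT peaks. Both intervals hold the share over all peaks, and they cover counting error alone. The 10 genotype-specific peaks lay at 4 genes, Il2ra, Il2rb, Il4ra and Il21r, while Il2rg, Il7r and Il15ra had shared peaks alone. Across all genes with a peak, 57.5% had at least 1 genotype-specific peak. That share was 36.5% of genes with 1 or 2 sites, as Il2rg, Il7r and Il15ra had, 96.3% of genes with 5 or 6 and 97.7% of genes with 7 or 8. The number of sites includes the genotype-specific peaks themselves. Il4ra depended on the gene assignment, since it had no genotype-specific peak when all RefSeq genes competed for peaks, which left 3 genes with such peaks, and no KO-only peak within 10 kb.

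**Figure D1:**
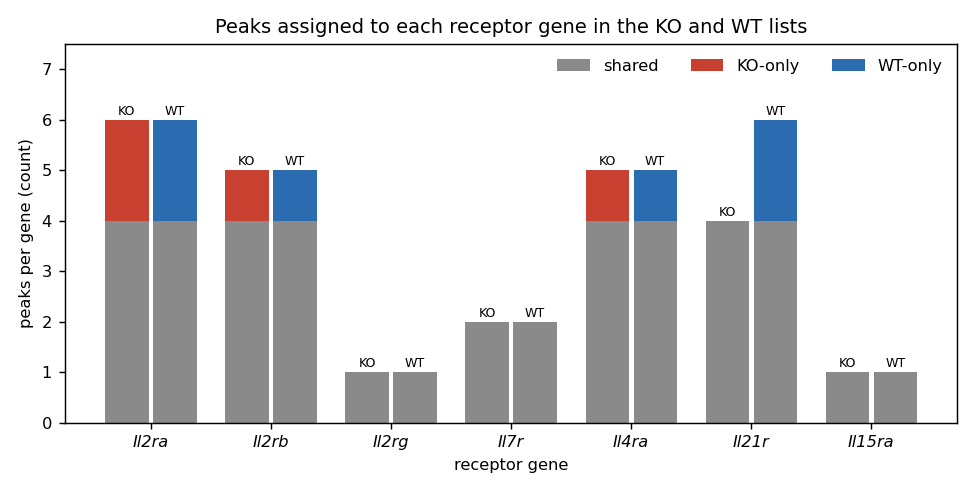
Peaks assigned to each receptor gene (count, vertical axis) in the KO list (left bar) and the WT list (right bar), with shared peaks in grey, KO-only peaks in red and WT-only peaks in blue. Il21r has 4 KO and 6 WT peaks, and at each of the other 6 genes the KO and WT bars are equally high.

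The common gamma chain gene itself had 1 site. Il2rg spans 101264385 to 101268255 on the X chromosome, minus strand. The KO peak lay at 101268242 to 101268434 and the WT peak at 101268300 to 101268518, with 135 bp in common. Their midpoints stood 83 bp (KO) and 154 bp (WT) before the start site. Within 10 kb of Il2rg both lists held 1 more peak assigned to Foxo4 and 1 assigned to Med12, each of them shared.

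Il2ra, the CD25 chain that gives the IL-2 receptor its high affinity, had the most sites of the family. It spans 11642792 to 11693194 on chromosome 2, plus strand, and had 6 peaks in the KO list and 6 in the WT list. Its 8 distinct sites were more than at 92.1% of genes with a peak, where the median was 2. By KO midpoints, the 4 shared sites stood 16.8, 7.57 and 0.148 kb before the start site and 10.7 kb after it. All 4 genotype-specific peaks of Il2ra lay inside the gene, downstream of the start. The KO-only peaks stood at 11651588 to 11651780 and 11663955 to 11664147, which is 8.89 and 21.3 kb after the start site. The WT-only peaks lay between them, 12.6 and 15.0 kb after the start site, at 11655260 to 11655478 and 11657686 to 11657904. A stretch within the gene therefore held, in order from the start, a KO-only, a shared, a WT-only, a WT-only and a KO-only peak. The remaining gene body beyond the last of these held no peak in either list.

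Il2rb, the beta chain shared by the IL-2 and IL-15 receptors, had 5 peaks in the KO list and 5 in the WT list. It spans 78479256 to 78511621 on chromosome 15, and its strand and start site were not used, so positions are given from the ends of the gene. The 4 shared sites had KO peaks at 78475663 to 78475855, 78493668 to 78493860, 78495083 to 78495275 and 78510299 to 78510491. The first of these KO peaks lay wholly inside its WT peak, as did the third, with 193 bp in common at each. The KO-only peak stood at 78512114 to 78512306, 0.589 kb beyond the upper gene end, where the nearest WT peak was 1.83 kb away between midpoints. Il2rb was thus the only one of the 7 genes with a peak within 1 kb of its start site or gene ends in the KO list but not in the WT list, a pattern found at 2.69% of all genes with a peak. None of the 7 had the opposite pattern, a WT peak without a KO peak, which was found at 3.05% of all genes with a peak. Within 1 kb, 6 of the 7 genes had a KO peak and 5 a WT peak, against 72.5% (KO) and 72.9% (WT) of all genes with a peak. At a window of 2 kb the shared site at the same end was also counted, and the difference in presence was gone. The WT-only peak stood inside the gene at 78502579 to 78502797.

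Il15ra, whose product holds IL-15 on the cell surface and presents it to neighbouring cells, lies 12.0 kb beyond Il2ra. It spans 11705172 to 11733985 on chromosome 2, plus strand, and had 1 site. The KO peak lay at 11705714 to 11705906 and the WT peak at 11705668 to 11705886, sharing 173 bp just after the second start. No peak of either list had its midpoint between Il2ra and Il15ra, so no peak had to be divided between these neighbours.

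Il7r, the alpha chain of the IL-7 receptor that also serves the TSLP receptor, had 2 shared sites and no genotype-specific peak. It spans 9506159 to 9529941 on chromosome 15, minus strand. The site in the gene was called at 9528368 to 9528560 in the KO list and at 9528396 to 9528614 in the WT list, 1.41 and 1.37 kb after the start site. The upstream site was called at 9533392 to 9533584 (KO) and 9533435 to 9533653 (WT), 3.61 and 3.67 kb before the start. No peak of either list lay within 1 kb of the Il7r start site used here.

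The far upstream side of Il7r depended on how peaks were given to genes. When each peak went to the gene with the nearest start site, Il7r also took 3 KO-only, 2 WT-only and 4 shared sites that the position rule gave to the next gene, Spef2. The KO-only peaks stood at 9555020 to 9555212, 9556047 to 9556239 and 9580634 to 9580826, which is 25.2, 26.3 and 50.9 kb from the Il7r start. The WT-only peaks were 51.2 and 93.1 kb from it, at 9580988 to 9581206 and 9622861 to 9623079. The third KO-only peak and the first WT-only peak lay beside each other without overlap. Which gene these sites act on was not measured.

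Il4ra and Il21r are neighbours on chromosome 7, both on the plus strand and 23.8 kb apart. Il4ra encodes the chain that binds IL-4 and, with another partner, IL-13. It spans 125552271 to 125579474 and had 5 peaks in the KO list and 5 in the WT list. Its shared sites had KO peaks at the start site (125552164 to 125552356), inside the gene (125561301 to 125561493) and beyond its far end (125581342 to 125581534 and 125588828 to 125589020). The KO-only peak stood 11.4 kb before the start at 125540796 to 125540988, and the WT-only peak 8.53 kb before it at 125543631 to 125543849. These midpoints were 2.85 kb apart. Both peaks stood late in their lists, at 78.5% of the KO rows and 97.8% of the WT rows.

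Il21r, which encodes the IL-21 binding chain, had 4 KO and 6 WT peaks and was the only one of the 7 genes with unequal numbers under the position rule. It spans 125603252 to 125634397, and its shared KO peaks lay at 125594042 to 125594234, 125603401 to 125603593, 125607383 to 125607575 and 125630335 to 125630527. Under the 1 bp overlap rule it had no KO-only peak. The WT-only peaks stood inside the gene at 125621821 to 125622039, 18.5 kb after the start, and 1.25 kb beyond the far end at 125635537 to 125635755. The nearest KO peaks were 8.5 and 3.34 kb away. A difference of 2 or more between KO-only and WT-only peaks was found at 13.2% of all genes with a peak, and more WT-only than KO-only peaks at 26.9%, so 1 gene of 7 is near or below the share over all genes.

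The space between Il4ra and Il21r held 3 KO peaks and 3 WT peaks, which formed 3 shared sites. By distance to the gene bodies 2 of them belonged to Il4ra and 1 to Il21r. By distance to the start sites, the 2 sites beyond the far end of Il4ra were nearer to the Il21r start, at 22.0 and 14.5 kb. These 2 stood among the earliest receptor peaks in both lists, with the second at 7.86% of the KO rows and 13.0% of the WT rows. The Il4ra side of the pair is thus left with 2 shared sites when start sites decide.

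**Figure D2:**
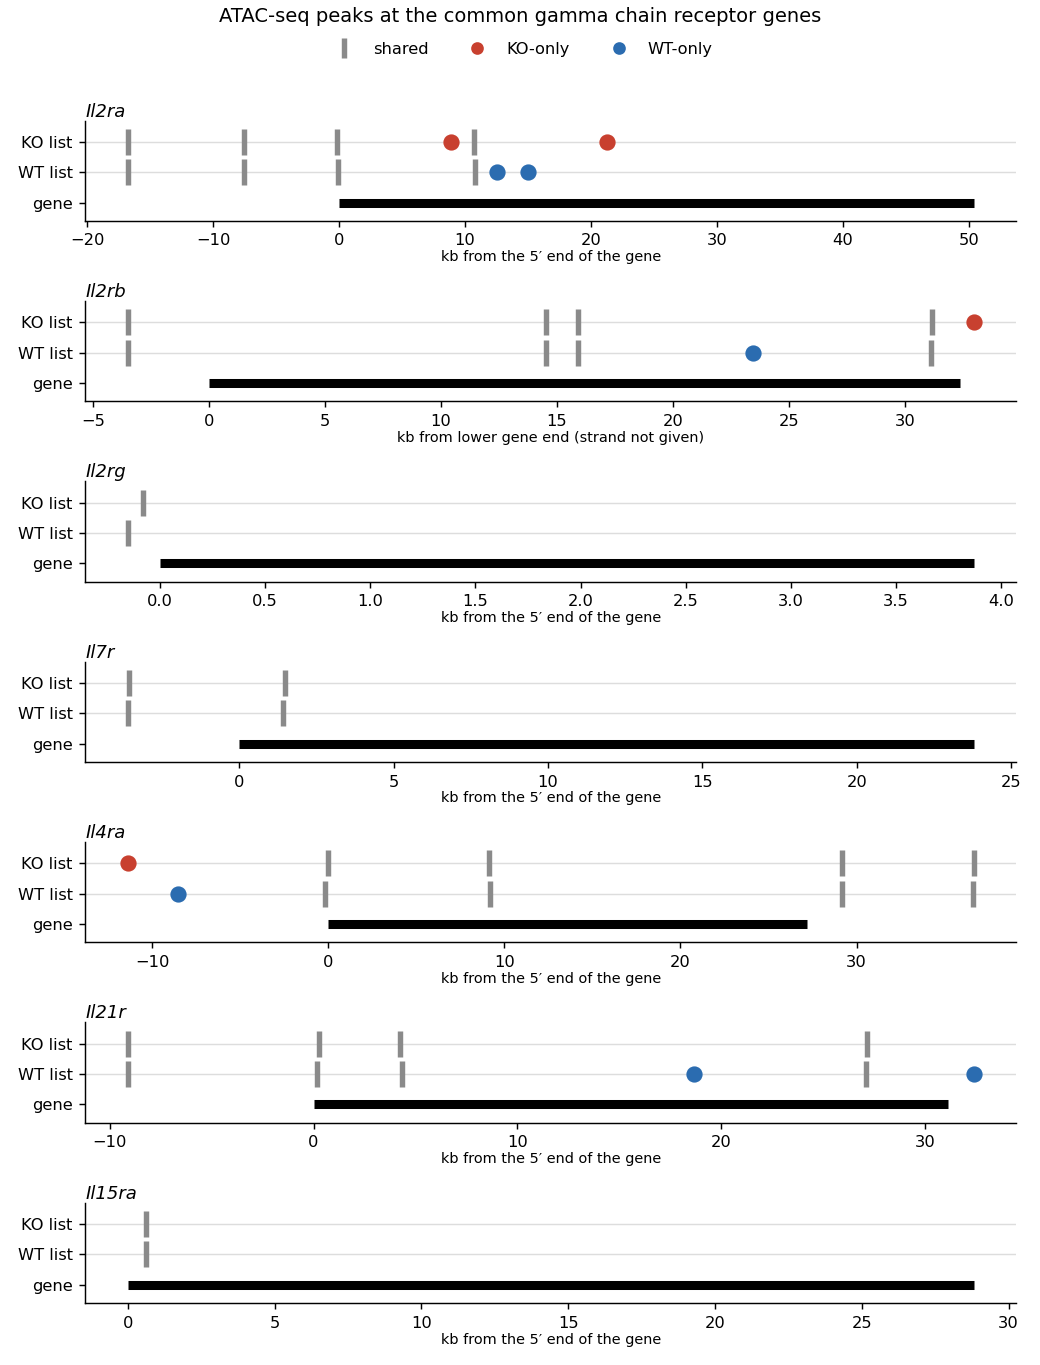
Peak midpoints along each receptor gene, with the KO list above the WT list and the gene body as a black bar. The horizontal axis is distance in kb from the 5′ end of the RefSeq gene body, or from the lower gene end for Il2rb. Grey ticks are shared peaks, red circles KO-only and blue circles WT-only peaks. Most ticks line up between the lists, and the 4 KO-only and 6 WT-only peaks lie at Il2ra, Il2rb, Il4ra and Il21r.

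None of the 10 genotype-specific peaks had a close counterpart in the other list. Their midpoints were at least 1.83 kb from the nearest peak of the other list, and at most 8.5 kb. Across all KO-only peaks 32.4% had a WT midpoint within 1 kb, and across all WT-only peaks 23.5% had a KO midpoint within 1 kb, a distance chosen after these values were seen. The counts at the receptor genes were the same when peaks with midpoints within 500 bp counted as shared. When an overlap of at least 50% of the shorter peak was required, they were 6 KO-only, 8 WT-only and 18 shared. KO-only and WT-only peaks then numbered 2 and 2 at Il4ra and 1 and 3 at Il21r.

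The called positions of the 20 shared pairs were also compared. A pair must overlap by at least 1 bp to count as shared, so by definition its midpoints cannot lie far apart. The KO and WT midpoints were a median of 38 bp apart, against 31 bp over all shared KO peaks. At 2 of the 20 pairs they were 100 bp or more apart, against 13.3% of all shared KO peaks. Those pairs were the start site of Il4ra, where the KO midpoint lay 156 bp downstream of the WT midpoint and the peaks had 50 bp in common, and the site inside Il21r at 125607383 to 125607575, with 91 bp in common. At Il4ra the WT peak ended 58 bases before the start site, whereas the KO peak ran across it. Nearly all peaks have a fixed width, so the edge of a peak is not a measured border of open DNA. The KO midpoint was the lower of the pair on the chromosome at 11 of 20 pairs, against 48.6% of all shared KO peaks.

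**Figure D3:**
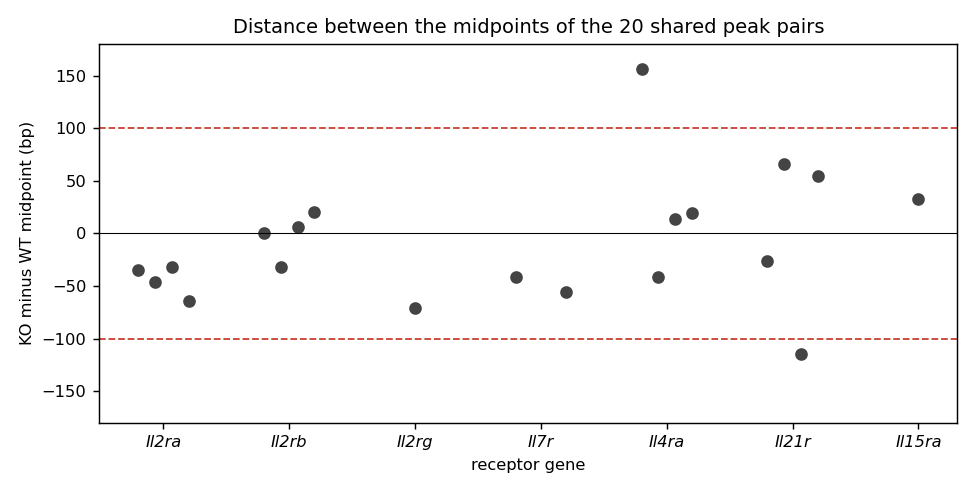
Midpoint of the KO peak minus midpoint of the WT peak (bp, vertical axis) for the 20 shared pairs, by receptor gene, with each point a pair and dashed lines at 100 bp in both directions. The pairs outside the lines are the start site of Il4ra at 156 bp and the site inside Il21r at -115 bp.

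The rows of the lists do not run along the chromosomes, and what their order stands for is not given in the sources used here. The place of a peak in its list is therefore given as a description, and places in lists of unequal length do not measure a change. Of the receptor peaks, 21 of 24 in the KO list and 22 of 26 in the WT list stood in the first 50% of rows. Shared receptor peaks had a median place of 25.9% in the KO list and 27.9% in the WT list, against 42.0% and 38.2% for all shared peaks. The KO-only receptor peaks had a median place of 49.0%, against 72.3% for all KO-only peaks. The WT-only receptor peaks had a median place of 46.9%, against 76.8% for all WT-only peaks.

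The earliest sites were distal to the starts. In the KO list they were the peak between Il4ra and Il21r at 7.86%, the Il2rb peak inside the gene at 9.79% and the Il4ra peak beyond its end at 12.1%. In the WT list they were the upstream Il7r peak at 11.2%, the same Il2rb site at 12.1% and the peak between Il4ra and Il21r at 13.0%. Start-site peaks followed, with 18.5% (KO) and 30.7% (WT) at Il21r, 23.4% and 21.8% at Il2rg, 24.4% and 32.9% at Il4ra, 25.9% and 25.0% at Il2ra, and 42.6% and 38.9% at Il15ra. The place was earlier in the KO list at Il21r and Il4ra and earlier in the WT list at the other 3. All shared peaks had a median place of 42.0% in the KO list and 38.2% in the WT list, so these orders do not measure a change.

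Genotype-specific peaks at Il2ra and Il2rb were not confined to the ends of the lists. The KO-only peak nearest the Il2ra start stood at 22.8% of the KO rows, and the WT-only peaks of Il2ra at 26.6% and 28.6% of the WT rows. The KO-only peak at the end of Il2rb stood at 31.0% and the WT-only peak beyond Il21r at 33.9%. The other Il2ra KO-only peak (67.1%), the WT-only peaks inside Il21r (59.8%) and Il2rb (90.2%) and both genotype-specific peaks of Il4ra stood later. In the first 50% of each list 2 KO-only and 3 WT-only peaks were thus left at the 7 genes.

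**Figure D4:**
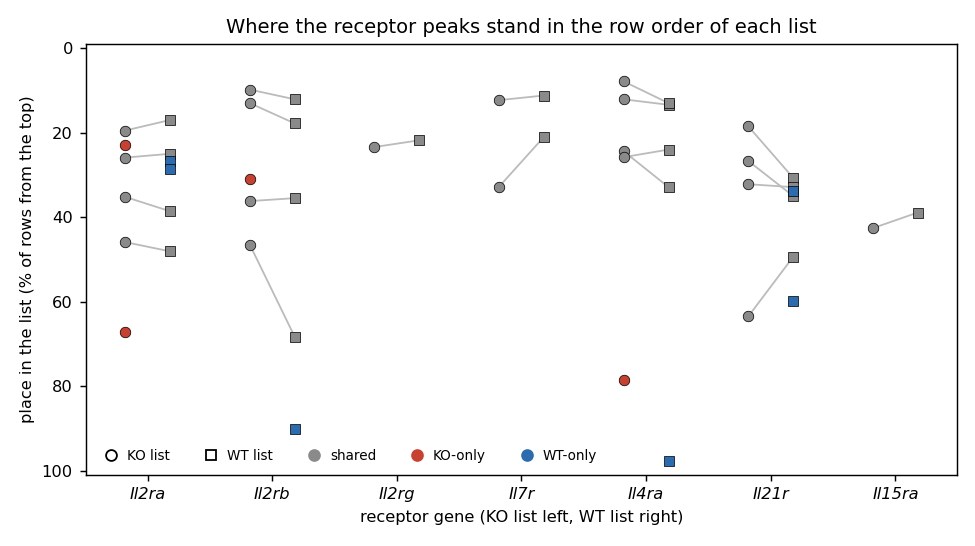
Place of each receptor peak in its list (% of rows from the top, vertical axis, earliest at the top), KO list left and WT list right of each gene, coloured by class, with grey lines joining shared pairs. Shared peaks lie between 7.86% and 63.5% in the KO list and between 11.2% and 68.3% in the WT list, and the latest peak is the WT-only peak of Il4ra at 97.8%.

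Other genes of the pathway were counted in the same way. The 6 cytokine genes of the family had 6 KO-only, 3 WT-only and 7 shared sites, with more KO-only peaks at 3 of 6 genes and more WT-only peaks at 1. Over all genes with a peak those shares were 20.3% and 26.9%. KO-only peaks were 66.7% of the genotype-specific peaks of the cytokine genes (counting interval 29.9 to 92.5%). The interval holds the 44.9% over all peaks. The gene for IL-2 had 3 KO-only and 1 WT-only peak. Its KO-only peaks stood at 37125914 to 37126106, 37153077 to 37153269 and 37157159 to 37157351 on chromosome 3, the first of them beside the WT-only peak at 37126211 to 37126429. The other receptor chains of the pathway, Il9r, Il13ra1 and Crlf2, had 3 KO-only, 4 WT-only and 8 shared sites, all of them at Il9r and Crlf2. The kinases and STAT genes had 10, 8 and 27, with 6 KO-only and 4 WT-only peaks at Jak1, which is used by every receptor of the family, and 0 and 2 at Stat3, a main target of IL-21. With midpoints within 500 bp counted as shared, a setting added after the data were seen, Jak1 had 3 KO-only peaks and 1 WT-only peak, and the gene for IL-2 had 2 and 0. With a distance limit of 10 kb Jak1 had 3 and 2, and the gene for IL-2 had 1 and 1. At Jak3, the kinase bound by the gamma chain, the only site was shared. KO-only percentages were 42.9% (9.9 to 81.6%) for the other receptor chains and 55.6% (30.8 to 78.5%) for the kinases and STAT genes. Both intervals also hold 44.9%.

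Feedback and target genes of the pathway had 18 KO-only, 12 WT-only and 26 shared sites, with more KO-only peaks at 6 of 7 genes and more WT-only peaks at 1. KO-only and WT-only peaks numbered 5 and 0 at Pim1, a kinase gene induced by STAT5, 2 and 0 at Socs1 and 5 and 3 at Socs2, both inhibitors of cytokine signalling. They numbered 2 and 8 at Bcl2, a survival gene. Under the 500 bp setting they numbered 3 and 1 at Socs2 and 1 and 7 at Bcl2. Across all genes with a peak, KO-only peaks were more numerous at 20.3% and WT-only peaks at 26.9%, and the median difference was 0, as it was over the 7 receptor genes. Over the feedback genes the median difference was 1 peak, and the lead of KO-only peaks was 1 at Cish, Socs3 and Mcl1. KO-only peaks were 60.0% of the genotype-specific peaks of these genes (counting interval 40.6 to 77.3%). That interval holds the 44.9% over all peaks. The median gene with a peak had 2 sites, fewer than each feedback gene. The shares over all genes are thus not matched for sites. With a limit of 10 kb in place of 100 kb, 9 KO-only peaks and 10 WT-only peaks remained over the feedback genes. KO-only and WT-only peaks then numbered 2 and 3 at Socs2, 0 and 1 at Socs3 and 2 and 6 at Bcl2. At Cish, Socs1, Pim1 and Mcl1 KO-only peaks were still more numerous.

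Receptor families outside the gamma chain family were counted for comparison. The 11 other type I and II cytokine receptor genes had 14 KO-only, 17 WT-only and 40 shared sites. WT-only peaks outnumbered KO-only peaks by 2 at Ifngr1, which encodes the interferon gamma binding chain, and at Il6st, the signal chain of the IL-6 family. The 7 genes of the IL-1 receptor family had 6, 4 and 16, with 2 KO-only and 0 WT-only peaks at Il18r1, a chain of the IL-18 receptor. KO-only peaks were 45.2% of the genotype-specific peaks of the type I and II genes (counting interval 27.3 to 64.0%). They were 60.0% (26.2 to 87.8%) for the IL-1 receptor family, against 44.9% over all peaks. The gamma chain family, with 4, 6 and 20, was not tested against either family.

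The lists as a whole bear on these counts in few places. Bcl11b had 5 KO-only, 5 WT-only and 6 shared sites, but the deleted exons are not named in the labels, so these peaks are no check of the knockout. All 4 Treg marker genes (Foxp3, Ctla4, Ikzf2 and Il2ra) and both T cell markers (Cd3e and Cd4) had peaks in both lists. KO-only, WT-only and shared sites numbered 7, 4 and 10 at Ikzf2, 2, 2 and 11 at Ctla4, and 0, 0 and 1 at Foxp3. Since 14443 of 21887 protein-coding genes had a peak in at least 1 list, a peak at a marker does not identify a cell type. Of the other markers, none of the 3 B cell genes had a peak in either list. In the KO list peaks were found at 1 of 2 CD8 T cell, 2 of 3 NK cell, 1 of 3 myeloid and 1 of 3 erythroid genes, and in the WT list at 1, 2, 1 and 2 of them. The myeloid genes were not the same, with 3 KO-only peaks at Itgam and 1 WT-only peak at Lyz2. Among the erythroid genes Gata1 had 2 WT-only peaks, and of the CD8 genes Cd8b1 had 1 WT-only peak and 1 shared site. NK cells also use Il2rb. Of their markers, Eomes had 3 KO-only peaks, 1 WT-only peak and 4 shared sites. Klrb1c had 1 KO-only peak, 2 WT-only peaks and 4 shared sites, while Ncr1 had no peak in either list. The cells were sorted for CD4 and YFP, and a part of NK cells in the Il2rb peaks was not tested.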

How the data were processed

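ATAC-seq was done on 3 KO and 3 WT samples. The submitters' processing notes name build mm10, the aligner HISAT2 2.1.0, SAMtools 1.3, Trim Galore 0.4.2 with cutadapt 1.12, and HOMER 4.10.1, beside FastQC and deepTools. How peaks were thresholded, whether reads were shifted for Tn5 and how replicates were combined is not given in the sources used here. The labels assign each list to all 3 samples of its group. The score that the authors deposited is 1 in every row and carries no height. Peak positions are as the authors deposited them, here counted from 1. Nearly all peaks have a fixed width, 193 bp in the KO list and 219 bp in the WT list.

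Overlaps, gene assignment and motif matches were computed in Python 3.11.15 (pandas 2.3.3, scipy 1.17.1, numpy 2.4.6; plots by matplotlib 3.10.9). Genes and promoter windows came from RefSeq tables of GRCm38.p6, and 6 of the 7 receptor genes had a window. Exons and introns were not used. Where gene bodies overlapped, a receptor gene took the peak first and otherwise the shorter gene. Code was checked on 800 simulated peaks against bedtools 2.31.1, with 0 differences. No test was made, since the lists hold no values per sample. The receptor genes, gene lists and motifs were chosen with earlier results of these data known. List genes were named where KO-only and WT-only peaks differed by at least 2. Settings tried were other overlap rules, list lengths, distance limits, gene assignments and start-site windows.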

Additional observations from a re-analysis of the deposited data

How the results depend on the processing

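Of 82 values recomputed under the alternatives, 70 did not turn in direction and stayed within 1.5 times the count or inside the counting interval. A further 10 moved beyond that and 2 turned in direction. A tie was not counted as a turn, as with 6 KO-only and 6 WT-only peaks at the kinases and STAT genes within 10 kb. KO-only minus WT-only peaks at the receptor genes was -2 and kept its sign under all 10 settings. In the first 50% of each list it was -1, with 2 KO-only and 3 WT-only peaks, a fall that follows from using fewer peaks. When the WT list was shortened to as many rows as the KO list it was -1, since the late WT-only peak of Il4ra was then left out. By the nearest start site it was -1, with 7 KO-only peaks, 3 of them in the Spef2 region upstream of Il7r. In the first 50% of each list the KO-only percentage of genotype-specific peaks was 100% for the cytokine genes (2 of 2 peaks), 0% for the other receptor chains (0 of 1), 78.6% for the feedback genes, 100% for the IL-1 receptor family (2 of 2) and 40.0% for the kinases and STAT genes, against 55.6% in the whole lists, a turn in direction that rests on 5 peaks. Over all peaks of the whole lists, KO-only peaks were 44.9% of the genotype-specific ones. The share over all peaks in the first 50% of each list was not computed. Within 10 kb the KO-only percentage was 47.4% for the feedback genes, against 60.0% within 100 kb, so the direction turned there too. Single receptor genes also moved. KO-only minus WT-only peaks became -1 at Il4ra within 10 kb and with 10 kb added to the gene body, 1 at Il4ra with the WT list shortened, 1 at Il7r by the nearest start site, and -1 at Il2ra and 1 at Il2rb in the first 50% of each list. The number of receptor genes with a start-site peak was 5 (KO) and 5 (WT) at 500 bp, and 7 and 7 at 2 kb. No paired analysis was possible because each list joins the 3 samples of its group, and for the same reason no replicate could be left out. Without read counts, a site called in the KO or WT list alone may differ by little from the calling threshold.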
